A study of Macaca mulatta with 12 samples.

Results

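TRBV24-1 is one of the variable (V) gene segments of the T cell receptor beta chain (TRB) of the rhesus macaque, and its clonotypes were the CDR3 nucleotide sequences chosen by their first listed V hit. The 12 clone tables held 4000 such rows of 218326, of which 5 lay in the baseline libraries and 3777 were different sequences after infusion. The V hit that chose the rows was read from the same sequences, so everything the V segment itself encodes, including the start of the CDR3, is given as a description without a test. The libraries hold TRB transcripts only, so the cell label (PBMC, blood mononuclear cells) could not be checked against other cell markers.

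The libraries followed T cell clones in macaques given apoptotic donor leukocytes (ADLs), fixed donor white cells infused on day -7 and day +1 per the series text. The study's methods describe the treated animals as male, nondiabetic and not transplanted, matched to the donor at one DRB allele, and given short-term immunosuppression with anti-CD40, rapamycin, tocilizumab and etanercept. No library came from an animal given immunosuppression alone, so ADLs and drugs cannot be told apart. The post-infusion libraries were labelled Amazo, Nebula and Rocket at day -5 (n = 3) and day -4 (n = 3), which were 2 and 3 days after the first infusion. Single libraries followed at day 0 (Nebula, 7 days after the first infusion) and at day +3 (Amazo, 2 days after the second), and 4 baseline libraries carried other animal names.

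A beta chain gene is assembled in the thymus by joining a V, a D and a J segment, with bases trimmed from the segment ends and other bases inserted at the joints. The joint, CDR3, contacts the peptide held by an MHC molecule, and its sequence is used to mark the likely descendants of 1 T cell. The TRB locus carries TRBD1 before the TRBJ1 genes and TRBD2 between the TRBJ1 and TRBJ2 genes, so TRBD1 can join either J cluster while TRBD2 normally joins TRBJ2.

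The sequences on which the results turn are shown next. The first is the TRBV24-1 end, read from 558 clonotypes with no base removed from V, with the serine codon in capitals. In the others, capitals mark the bases that the clone tables assigned to V.
TRBV24-1 end, 17 nt: tgtgccaccAGTgattt
TRBJ2-1 clone of Amazo day -4, 42 nt: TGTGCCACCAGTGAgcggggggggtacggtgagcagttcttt
TRBJ2-4 clone of Amazo day -4, 29 nt: TGTGCCACCcccaaaacactcagtacttc
TRBJ2-5 clone of Amazo day -4, 42 nt: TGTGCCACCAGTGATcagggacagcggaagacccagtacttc
TRBJ2-7 clone of Nebula, 51 nt: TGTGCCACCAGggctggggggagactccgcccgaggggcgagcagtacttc
TRBJ2-2 clone of Nebula, 51 nt: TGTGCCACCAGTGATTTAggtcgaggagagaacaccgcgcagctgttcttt
TRBJ2-1 clone of Rocket and Amazo day -5 and day +3, 42 nt: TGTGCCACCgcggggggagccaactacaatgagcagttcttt
TRBJ1-5 clone of Rocket and Amazo day -5 and day +3, 51 nt: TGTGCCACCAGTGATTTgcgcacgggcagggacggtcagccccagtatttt

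Total counts were 63 to 74 at baseline and 42695 to 556954 after infusion, with the Nebula day -4 library the shallowest of the latter. The median V alignment score of TRBV24-1 clonotypes was 249 to 460 in the 3 baseline libraries that held any and 1293 to 1383 in the 8 others, so baseline also differed in kind of read. The libraries labelled Amazo went against their name. Over all V genes, the Morisita-Horn index (0 for no shared clonotype, 1 for identical repertoires) was 0.765 to 0.977 in 9 of the 28 pairs of post-infusion libraries and at most 0.0116 in the other 19. The 9 pairs were those among the 3 Nebula libraries and those among Rocket day -5, Rocket day -4, Amazo day -5 and Amazo day +3, while Amazo day -4 belonged to neither set. TRBV24-1 clonotypes alone split in the same way, with an index of 0.571 to 0.832 in the 9 pairs and at most 0.132 in the 19.

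TRBV24-1 made up about 1% to 4% of counts after infusion, and its level followed the repertoire that a library held. Amazo had 1.01%, Nebula 2.27% and Rocket 0.806% at day -5. One day later the values were 4.35% for Amazo, 2.48% for Nebula and 0.986% for Rocket. The Nebula day 0 library held 2.50% and the Amazo day +3 library 0.973%. The 4 libraries of the repertoire shared by Rocket and Amazo thus stayed at 0.806% to 1.01%, the 3 Nebula libraries at 2.27% to 2.50%, and Amazo day -4 stood above them all. In this order Amazo day +3, Rocket day -4 and Amazo day -5 had overlapping 95% Wilson intervals, as did Nebula day -4 and day 0. The intervals cover counting error only, since PCR copies are not independent molecules.

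The share of counts was higher at day -4 in 3 of 3 names, but the sizes were unequal. The difference was 3.34 percentage points for Amazo, 0.204 for Nebula and 0.180 for Rocket, with a mean of 1.24 ± 1.82 (SD, n = 3; exact two-sided sign-flip permutation test, p = 0.25, the smallest p that 3 pairs allow). Day -4 averaged 2.60% ± 1.69 and day -5 averaged 1.36% ± 0.794 (SD, n = 3 each), and the groups overlapped. Without Amazo the mean difference was 0.192. The Amazo libraries of these days held different repertoires (Morisita-Horn index 0.0116 over all V genes), so their difference is not a change within a repertoire. Amazo and Rocket shared a repertoire at day -5 (index 0.896), so the 3 names are not separate repertoires on that day. In the fit over 57 V genes with animal name as a block, TRBV24-1 had a log2 fold change of 0.74 (SE 0.43) at day -4 (edgeR quasi-likelihood test, Benjamini-Hochberg adjusted p = 0.627). This fit called 0 genes (percent called 0.0%), and 0 genes had an unadjusted p below 0.05, whereas DESeq2 also called 0 with 5 below that unadjusted level. The log2 fold change of TRBV24-1 was 0.13 without Amazo, when 4 other V genes were called.

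Much of the high share in Amazo day -4 lay in 1 clonotype. Leaving out the largest TRBV24-1 clonotype of every library gave 2.11% in Amazo day -4, 2.08% in Nebula day -4 and 0.949% in Rocket day -4, against 0.960%, 2.13% and 0.742% at day -5. Amazo day -4 then lay within the Nebula range of 2.08% to 2.26%. Counting each clonotype once narrowed the range further, to 1.44%, 2.17% and 1.53% at day -5 (Amazo, Nebula, Rocket) and to 2.00%, 2.24% and 1.58% at day -4. The share of clonotypes differed by 0.228 percentage points ± 0.293 (SD, n = 3; exact sign-flip permutation p = 0.25), higher at day -4 in 3 of 3 names. It was 2.29% at day 0 and 1.503% at day +3.

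**Figure D1:**
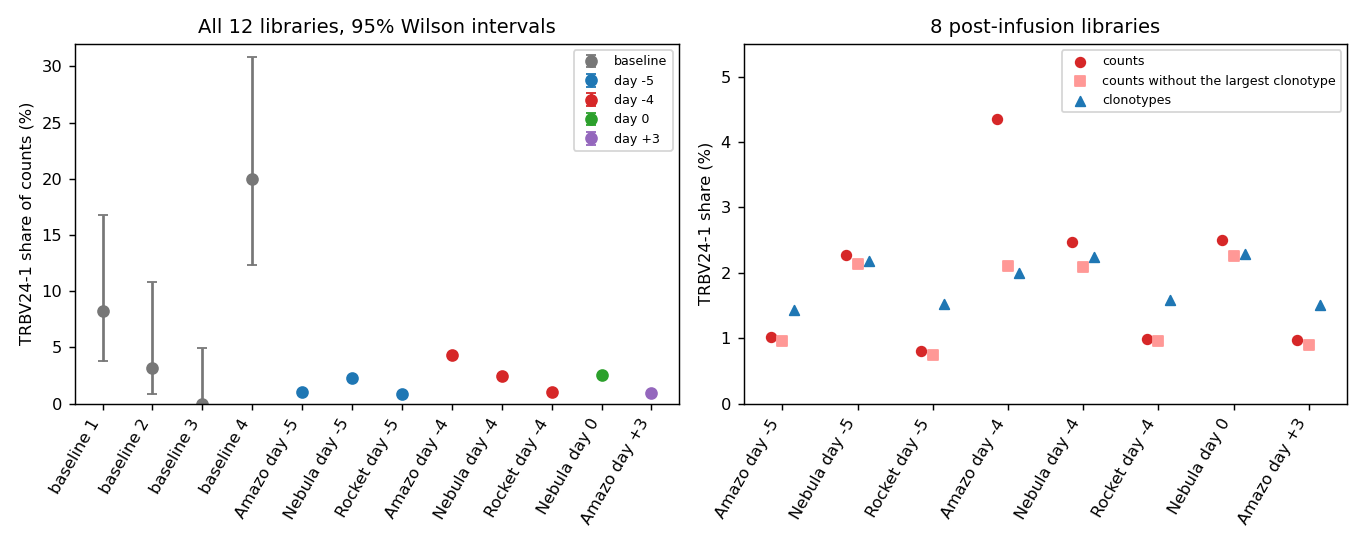
TRBV24-1 share of each library in percent: counts in all 12 libraries with 95% Wilson intervals (left), and counts, counts without the largest clonotype and clonotypes in the 8 post-infusion libraries (right). Amazo day -4 reaches 4.35% of counts but 2.11% without its largest clonotype, and the baseline intervals are wide.

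The baseline libraries gave little precision. TRBV24-1 took 6 of 73 counts (8.22%, 95% Wilson interval 3.82% to 16.8%), 2 of 63 (3.17%, 0.875% to 10.9%), 0 of 74, which allows a share of up to 4.05% taken as 3 counts (4.93% as the Wilson limit), and 14 of 70 (20%, 12.3% to 30.8%). These were 2, 1, 0 and 2 clonotypes. The baseline mean of 7.85% ± 8.78 (SD, n = 4) was the highest group mean. Day -5 minus baseline was -6.49 percentage points (exact two-sided permutation test, p = 0.286) and day -4 minus baseline -5.24 (exact permutation p = 0.457), and the smallest p that 4 against 3 allows is 0.0571. The groups overlapped, and without baseline library 4 the differences were -2.44 and -1.19. Reads, animal names and time differed together between these groups and cannot be told apart.

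The V genes whose shares moved most like that of TRBV24-1 over the 8 libraries were TRBV2-1, TRBV7-9 and TRBV16. Pearson's r of log2(percent + 0.001) with TRBV24-1 was 0.993, 0.989 and 0.983 among 52 genes compared, as a description in which the libraries share 3 repertoires. TRBV2-1 ranged from 0.739% (Rocket day -5) to 2.28% (Amazo day -4), TRBV7-9 from 0.450% to 1.08% and TRBV16 from 0.0163% to 0.307% in the same 2 libraries. Of the 9 V genes nearest in numbering (TRBV19, TRBV20-1, TRBV21-1, TRBV23-1, TRBV25-1, TRBV27, TRBV28, TRBV29-1 and TRBV30), 0 passed the test between day -4 and day -5. TRBV20-1 and TRBV28 mark the spread among them. TRBV20-1 was highest in Amazo day -4 (4.40%), as TRBV24-1 was, and TRBV28 ran the other way, at 4.47% to 5.31% in the 4 libraries of the Rocket repertoire and 0.675% to 0.830% in the other 4.

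The CDR3 of TRBV24-1 had a recognisable start. Read in frame, the V end printed above encodes CATSD and begins the codon after it. CATS opened 69.8% to 79.2% of productive TRBV24-1 clonotypes (in frame, without a stop codon) in the 8 post-infusion libraries, with a median of 73.4%. CATSD opened 41.99% to 50.2%, CATSE 5.79% to 11.4% and CATR 4.90% to 9.94%. The start was largely that of this gene, since 90.2% to 96.8% of all productive clonotypes opening with CATS were TRBV24-1, while at most 0.119% of productive clonotypes of other V genes opened with it. All 5 baseline clonotypes of TRBV24-1 opened with CATS, 3 of them with CATSE.

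Weighting by counts changed the picture where a large clone was present. CATSE took 61.1% of productive TRBV24-1 counts in Amazo day -4 but 9.53% of its clonotypes. CATR took 24.8% of counts in Nebula day -4 and 8.98% of its clonotypes. In Rocket day -4, which had no clone of that size, CATSE took 9.42% of counts and 10.9% of clonotypes.

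TRBV24-1 ends were trimmed more than the average of the other V genes. Productive clonotypes had lost 3.53 to 3.88 bases of V on average, against 2.67 to 2.94 for other V genes, higher in 8 of 8 libraries. The share with an untrimmed V end was 12.9% to 17.4% against 21.1% to 24.5%. Trimming was uneven along the V end. Losses of 2 or 3 bases, which end V after the D codon or inside it, together accounted for 28.3% to 43.3% of all TRBV24-1 clonotypes. No loss accounted for 12.6% to 17.1% and was the most frequent single class in Nebula day -5 (17.1%). Losses of 1 base accounted for 3.83% to 6.91%, of 6 bases for 5.80% to 11.9%, and of 10 or more for 1.53% to 3.73%. The largest clone, which opens with CATSE, had lost 3 bases. Losses of 3 bases were most frequent in Rocket day -5 (24.5%) and least in Nebula day -5 (14.1%).

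**Figure D2:**
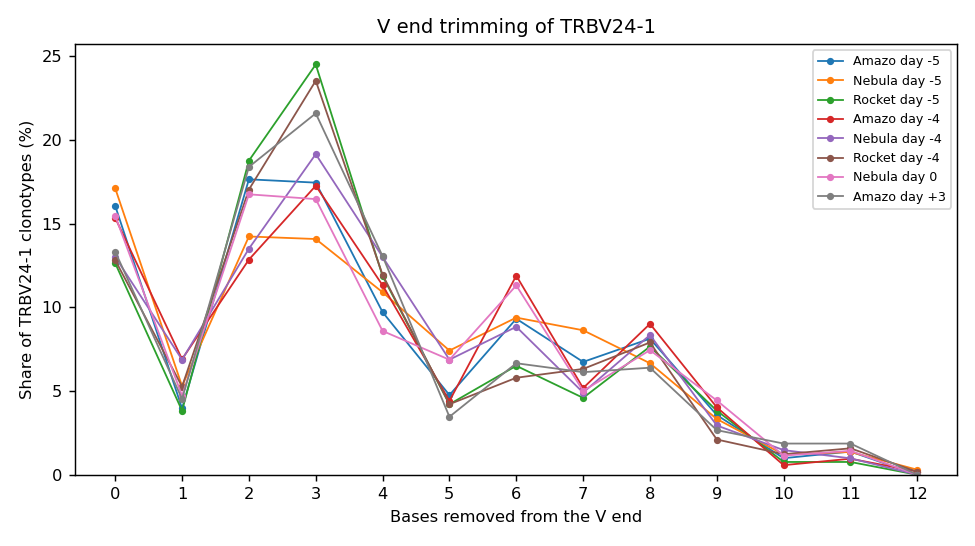
Share of TRBV24-1 clonotypes (percent, each counted once) by the number of bases removed from the V end, with 1 line per post-infusion library. All 8 lines dip at 1 base (3.83% to 6.91%) and are higher again at 2 and 3 bases.

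TRBV24-1 clonotypes were also more often productive. At day -4 the productive share was 94.6% in Amazo, 98.5% in Nebula and 96.7% in Rocket, and over 8 libraries it was 93.3% to 98.5%, against 88.8% to 94.5% for other V genes, higher in 8 of 8. Out-of-frame clonotypes made up 1.47% to 5.60% of TRBV24-1 and 4.70% to 9.20% of the others, lower in 8 of 8. No TRBV24-1 clonotype listed a second V gene, so its assignment was not shared with a similar segment.

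Counting each clonotype once, the CDR3 of TRBV24-1 was slightly longer than that of other V genes, a comparison given without a test because the length includes V bases. At day -4 productive TRBV24-1 clonotypes averaged 43.9 nt in Amazo, 44.1 in Nebula and 44.1 in Rocket, against 43.3, 43.1 and 43.4 for other V genes. The mean difference was 0.728 nt ± 0.167 (SD, n = 3), higher in 3 of 3. It was higher in 8 of 8 post-infusion libraries, by 0.386 to 0.913 nt, although these libraries are not independent. Single clonotypes varied far more, with an SD of 5.15 to 7.13 nt within a library. The V segment contributed 13.2 to 13.5 bases against 12.7 to 13.01 in other V genes, higher in 8 of 8. Bases assigned to V supplied 0.532 of the 0.588 nt in Amazo day -4, 0.310 of 0.913 in Nebula and 0.440 of 0.683 in Rocket. Weighted by counts the mean difference was 1.14 nt ± 1.38, positive in 2 of 3, and it was -0.364 in Amazo day -4. Inserted bases were 6.71 to 7.997 against 7.13 to 7.78, higher in 3 of 8. Day -4 and day -5 TRBV24-1 lengths differed by -0.119 nt ± 0.138 (SD, n = 3; exact sign-flip permutation p = 0.5).

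**Figure D3:**
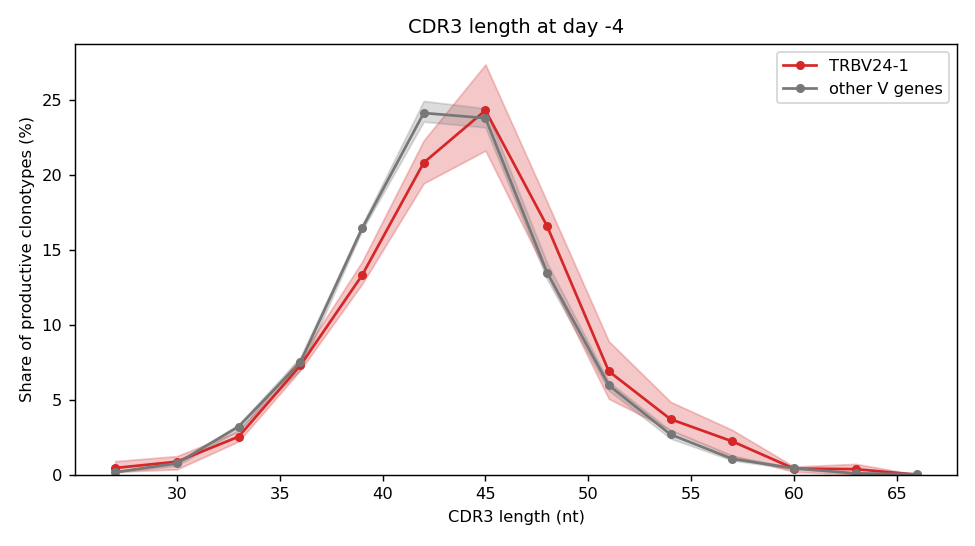
CDR3 length of productive clonotypes at day -4 (nt, horizontal) against their share in percent (vertical), as the mean of 3 libraries with the range shaded. The TRBV24-1 line is shifted to longer CDR3s, by 0.728 nt in the mean.

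J genes supply the end of the CDR3, and TRBV24-1 joined the 13 J genes of both clusters. TRBJ1-2 was more frequent than with other V genes at day -4. It made up 11.9% of TRBV24-1 clonotypes in Amazo, 9.34% in Nebula and 10.0% in Rocket, against 7.23%, 8.63% and 7.21% of other clonotypes, with no overlap between the groups. The log2 fold change was 0.46 (SE 0.13; edgeR quasi-likelihood test with library as a block, adjusted p = 0.0230), and TRBJ1-2 was the 1 gene called of 13 (percent called 7.69%). That call was lost without any 1 of the 3 libraries (adjusted p = 0.512 without Amazo, 0.201 without Nebula and 0.711 without Rocket). It was also lost in the day -5 libraries (log2 fold change 0.30, adjusted p = 0.556) and without the block. When counts replaced clonotypes the call was lost and the direction reversed (log2 fold change -0.18, adjusted p = 0.929 by edgeR).

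TRBJ2-3 was the next largest difference, in the other direction. Its share was 8.25% in Amazo, 5.41% in Nebula and 7.73% in Rocket, against 8.79%, 8.65% and 10.7% in other V genes (log2 fold change -0.38, SE 0.14, adjusted p = 0.0641 by edgeR). It was lower in 8 of 8 post-infusion libraries, as was TRBJ2-7 (8.73% to 11.3% against 11.1% to 11.8%). TRBJ1-2 was higher in 7 of 8. A fit over all 8, which counts repeated libraries of a repertoire as replicates, called TRBJ2-3 (log2 fold change -0.44) and TRBJ1-2 (0.35). TRBJ2-1, the J gene of the largest clone, had the third largest value at -0.20 (SE 0.11, adjusted p = 0.435).

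Over the whole cluster, TRBJ2 genes made up 57.8% (Amazo), 57.7% (Nebula) and 55.5% (Rocket) of TRBV24-1 clonotypes at day -4, against 62.1%, 57.6% and 63.8% in other V genes. The mean difference was -4.15 percentage points ± 4.18 (SD, n = 3; exact sign-flip permutation p = 0.5), lower in 2 of 3 libraries at day -4 and in 7 of 8 after infusion. By counts the difference was 8.90 ± 20.1 in the opposite direction (SD, n = 3; exact sign-flip permutation p = 0.75, positive in 2 of 3). TRBJ2 genes took 84.2% of TRBV24-1 counts in Amazo day -4.

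Counting each clonotype once, TRBV24-1 showed more TRBD1 and less TRBD2 than other V genes. TRBD2 alone was the D hit of 13.4% of clonotypes in Amazo day -4, 13.02% in Nebula and 15.5% in Rocket, against 19.2%, 19.1% and 22.3%. The mean difference was -6.21 percentage points ± 0.562 (SD, n = 3; exact sign-flip permutation p = 0.25, lower in 3 of 3). In the day -5 libraries it was -5.96 ± 1.53 (SD, n = 3), so an SD from 3 libraries is itself imprecise. The TRBD2 share was lower in 8 of 8 post-infusion libraries, with differences of -4.22 to -7.06. TRBD1 alone made up 40.1% to 47.4% against 34.9% to 36.7%, higher in 8 of 8. The difference was present within the TRBJ2 cluster, where both D genes can join: TRBD2 made up 17.9% to 26.3% of TRBV24-1 and 26.3% to 30.8% of other clonotypes, lower in 8 of 8. By counts this did not hold in every library. TRBD2 took more of the TRBV24-1 counts than of other counts in the 3 Nebula libraries (27.7% against 18.5% at day -4), and TRBD1 took less there and in Amazo day -4 (22.1% against 36.04%). The count-weighted TRBD2 difference at day -4 was -4.84 ± 12.2, lower in 2 of 3. Clonotypes with no D hit differed by -3.46 percentage points ± 2.10 (SD, n = 3; exact sign-flip permutation p = 0.25, lower in 3 of 3) and were lower in 6 of 8 libraries. That difference was smaller, at -2.16, among clonotypes of at least 2 counts and -1.57 in the day -5 libraries (lower in 2 of 3). TRBD2 normally joins TRBJ2, but TRBD2 alone was also a D hit among clonotypes joined to TRBJ1 genes. There it made up 3.09% to 10.3% of TRBV24-1 and 6.95% to 7.75% of other clonotypes, lower in 6 of 8 libraries. D hits are short matches, and their part in the result was not tested.

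**Figure D4:**
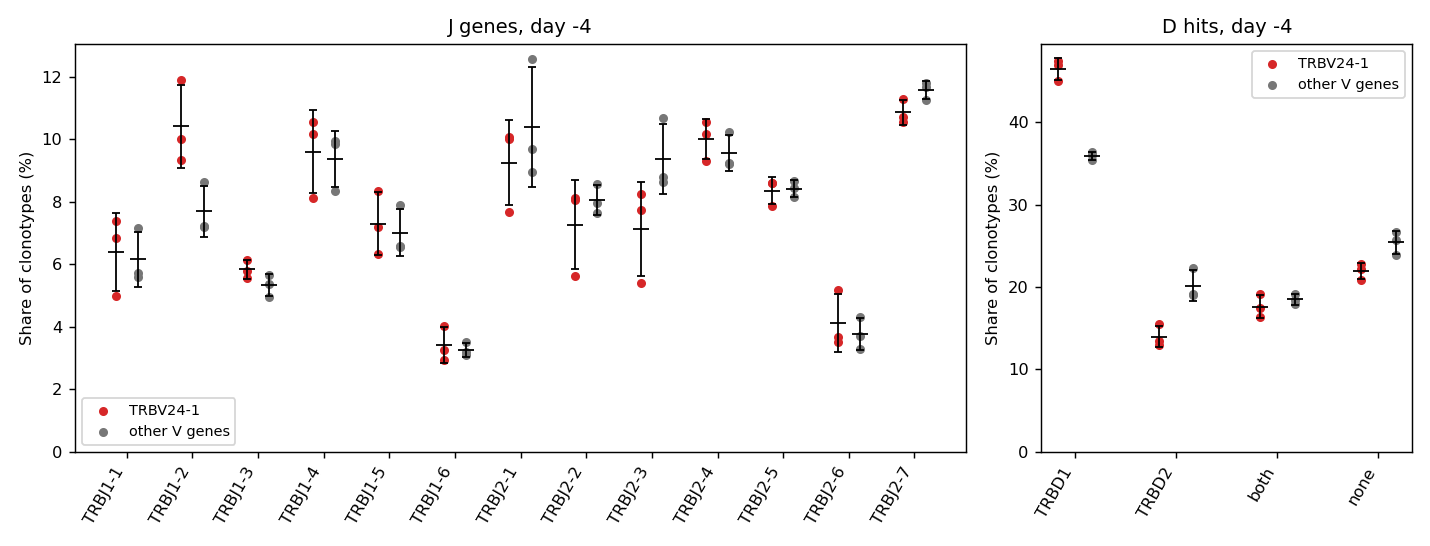
J genes (left) and D hits (right) as a share of clonotypes in percent at day -4, with each of 3 libraries as a point and mean ± SD in black. By clonotypes, TRBV24-1 points lie above those of other V genes for TRBJ1-2 and TRBD1 and below them for TRBD2.

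The largest TRBV24-1 clonotype was the TRBJ2-1 clone printed above, which encodes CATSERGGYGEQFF. It held 8998 counts in Amazo day -4, 52.7% of TRBV24-1 counts and the second largest clonotype of that library, at 2.29% of counts. It was at 127 counts (0.0365%) in Amazo day -5, 8 in Amazo day +3, 1 in Nebula day 0 and 0 in the other 4 post-infusion libraries, where 0 allows up to 0.000539% to 0.00703% taken as 3 counts (0.000690% to 0.00900% as the Wilson limit). Of the 3777 sequences it alone reached 0.5% of any library, and 6 in all reached 0.1%. Amazo day -4 also held 411 counts of a 41-nt clonotype that is 1 base shorter and out of frame, found in no other library. It lacks 1 g of the run of g bases in the large clone and held 4.57% of that clone's counts. Whether it is a copying error of that clone was not tested, and it is 1 of the 6 sequences that reached 0.1%.

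The same amino acids appeared in baseline library 2 with another nucleotide sequence, 2 counts in all. The sequences differed at 2 adjacent positions just after the bases assigned to V, G15A and C16A, counted from the first base of the CDR3 with the Amazo base first. They are shown together, with the differing bases in capitals.
Amazo day -4: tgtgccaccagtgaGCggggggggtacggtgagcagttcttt
baseline library 2: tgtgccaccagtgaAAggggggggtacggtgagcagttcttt
No baseline TRBV24-1 nucleotide sequence was found after infusion.

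Amazo day -4 held a further pair of large clones that were rare elsewhere. The 29-nt TRBJ2-4 clone, out of frame, had 882 counts (0.225%) there, 9 in Amazo day -5 and 1 in Rocket day -5. The TRBJ2-5 clone, which encodes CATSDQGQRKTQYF, had 571 counts (0.145%) there and 2 in Amazo day -5. The 10 largest TRBV24-1 clonotypes took 66.1% of TRBV24-1 counts in Amazo day -4, against 26.4% in Nebula and 14.9% in Rocket on the same day and 19.4%, 17.9% and 24.3% at day -5. The difference of 15.3 percentage points ± 28.7 (SD, n = 3; exact sign-flip permutation p = 0.75) was positive in 2 of 3 names and was -0.455 without Amazo.

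In the Nebula libraries a 51-nt TRBJ2-7 clone was the largest TRBV24-1 clonotype at each time. It had 634 counts (0.149%) at day -5, 172 (0.403%) at day -4 and 651 (0.252%) at day 0, and 1 count in Rocket day -5. The 51-nt TRBJ2-2 clone went from 476 counts (0.112%) to 29 (0.0679%) and 137 (0.0531%) and was found in the Nebula libraries alone. Its share was thus lower at both later times while that of the TRBJ2-7 clone was higher.

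The repertoire shared by Rocket and the other Amazo libraries had smaller leading clones. Their 42-nt TRBJ2-1 clone had 177 counts in Amazo day -5 (0.0508%), 321 in Rocket day -5 (0.0576%), 95 in Rocket day -4 (0.0366%) and 234 in Amazo day +3 (0.0771%). The 51-nt TRBJ1-5 clone, whose V end was untrimmed, had 80, 357, 90 and 79 counts in the same order. Both were at 0 in Amazo day -4 and in all 3 Nebula libraries.

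**Figure D5:**
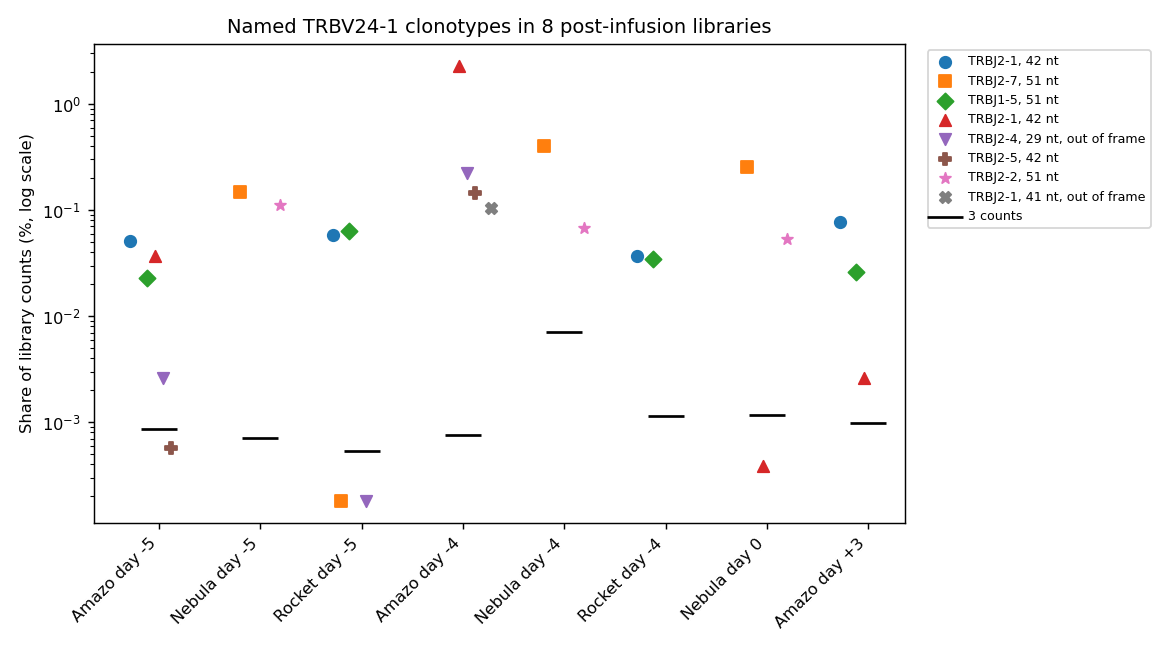
Share of library counts (percent, log scale) of the 8 named TRBV24-1 clonotypes in each post-infusion library, labelled by J gene and CDR3 length, with a bar at 3 counts; clonotypes at 0 are not drawn. The TRBJ2-1 clone of Amazo day -4 is at 2.29%, and no other point exceeds 0.403%.

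Clonotypes of any V gene at 0.1% or more in either library of a pair were compared by Fisher's exact test, which compares the libraries and not the days and, since PCR copies are not independent, covers counting error only. From Amazo day -5 to day -4, all 4 TRBV24-1 clonotypes tested were called expanded, by 62.8-fold for the TRBJ2-1 clone, 86.9-fold for the TRBJ2-4 clone, 253-fold for the TRBJ2-5 clone (unfloored ratio, exact 95% counting interval 69.8 to 2096, from 2 counts) and at least 121.5-fold for the 41-nt sequence against a floor of 3 counts (exact 95% interval from 98.4). The 41-nt sequence, 1 base shorter than the TRBJ2-1 clone, was counted as a separate clonotype. These libraries held different repertoires (Morisita-Horn index 0.0116 over all V genes), so the folds do not measure growth of clones within a repertoire. All 81 clonotypes tested were called in that pair, 42.0% expanded and 58.0% contracted, so the members' count does not set them apart. From Nebula day -5 to day -4, 1 of 2 members was called, the TRBJ2-7 clone, 2.71-fold higher in the day -4 library, where 8.0% of 25 clonotypes were called expanded and 0.0% contracted. From Nebula day -5 to day 0, 1 of 2 members was called, the TRBJ2-2 clone, 2.10-fold lower in the day 0 library, where 8.7% of 23 were called contracted. No TRBV24-1 clonotype reached 0.1% in the Rocket pair or in Amazo day -5 and day +3, so 0 members were tested there. Of the 52 clonotypes tested in the Rocket pair 1.92% were called contracted and 0.0% expanded, and of the 49 in the Amazo pair 10.2% and 0.0%.

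Most TRBV24-1 clonotypes were seen in 1 library. Of the 3777 post-infusion sequences, 3621 were in 1 library, 156 in 2 or more, 75 in libraries of 2 names and 0 in all 3 names. The 75 include sequences of the repertoire that the Rocket libraries shared with Amazo day -5 and day +3. The same counts are not given for other V genes, so they do not set TRBV24-1 apart. Amazo day -5 shared 3 clonotypes with Amazo day -4 (0.595% and 0.576% of each), but 33 with Rocket day -5 (6.55% and 12.6%) and 39 with Rocket day -4 (7.74% and 6.85%). Nebula day -5 shared 27 with Nebula day -4 (4.09% and 6.63%) and 40 with day 0 (6.06% and 5.73%). Rocket day -5 shared 24 with Rocket day -4 (9.20% and 4.22%). The 27 Nebula ones took 19.6% and 28.9% of TRBV24-1 counts in their libraries and the 24 Rocket ones 28.2% and 16.3%. Within the Nebula shares, the TRBJ2-7 and TRBJ2-2 clones took 6.55% and 4.92% at day -5 and 16.3% and 2.74% at day -4. Between the Nebula and Rocket libraries 3 nucleotide sequences and 7 amino acid sequences of TRBV24-1 were shared, the latter with a mean length of 13.6 residues.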

How the data were processed

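Each deposited table lists the TRB clones of 1 library with a count and a fraction per clone. The authors made cDNA by template switching, amplified the VDJ region, sequenced on a MiSeq, cleaned the reads (Trimmomatic) and built clones in MiXCR at default settings (version not given in the sources used here). Deposited counts are whole numbers without normalization, and the deposited fraction is the count over the library total. A filter at 0.5% and barcode collapsing are described, but smaller clones are present and no barcode column was found, so counts were used as they stand. A single count is 0.00018% to 0.00234% of a post-infusion library.

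Members and lists were chosen with earlier results of these data known. The V gene was the first hit, and D hits were sorted into TRBD1, TRBD2, both or none. Samples were grouped by label, and day -4 was paired with day -5 by animal name. The deviations of paired libraries over 57 V genes correlated at r = -0.14 in Amazo, 0.86 in Nebula and 0.94 in Rocket. Counts per V gene were tested with edgeR 4.0.16 in R 4.3.3 (TMM scaling, at least 10 counts in at least 3 libraries, animal name as block). J genes were tested on day -4 clonotypes, each counted once, with library as block. Clonotypes were called by Fisher's exact test at an adjusted p below 0.05 and at least 2-fold, with counts below 3 set to 3 for the call. Other values used two-sided exact permutation tests in Python 3.11.15 with scipy 1.17.1. DESeq2 1.42.0 was an alternative. Alternatives were other count and clonotype filters, weights, thresholds and models, and leaving out each library. The edgeR fits and Fisher's exact test were tried on simulated data. Those data held no mismatch of repertoires within a name, so they do not cover that feature, and their outcome is not given here. Libraries were not stated to come from separate extractions, so p-values of the fits and permutation tests measure the spread between these libraries. Those of Fisher's exact test cover counting error only. Named V genes were TRBV24-1, the 9 nearest in numbering and the 3 most like it over 8 libraries. Named J genes were the 3 largest differences and any called. Named clonotypes were the largest per library, those of at least 0.5%, those called, and the 5 in the most animal names. TRBV20-1 and TRBV28 were singled out, and CDR3 starts chosen, after values were seen. Chromosome positions were not used here. Figures used matplotlib 3.10.9.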

Additional observations from a re-analysis of the deposited data

How the results depend on the processing

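TRBV24-1 kept its direction between day -4 and day -5 by share of counts and of clonotypes under every alternative run, and passed no threshold in any. Leaving out each name in turn gave 0.192 to 1.77 percentage points of counts and 0 to 4 called V genes. The 1 called J gene became 0 with counts in place of clonotypes, in the day -5 libraries, with no replicate block and with any library left out, and 2 over all 8 libraries; with fewer libraries fewer data entered the fit, and otherwise the cause was not tested. By counts the log2 fold change of TRBJ1-2 reversed to -0.18. Without the replicate block no other call changed. The difference in the share of the 10 largest clonotypes ranged from -0.455 (without Amazo, reversed) to 27.6 on leaving out 1 name. The TRBJ2 difference reversed to 8.90 ± 20.1 (SD, n = 3) when weighted by counts. The largest clone of Amazo day -4 enters that setting with 8998 counts. Called TRBV24-1 clonotypes from Amazo day -5 to day -4 became 1 at a threshold of 0.5% and 5 at 0.05%, 1 of them contracted. In each of the Nebula pairs, the call of 1 became 0 at a threshold of 0.5%, 2 with no minimum fold and 0 at 5-fold. Of 135 alternatives over 18 results, 117 were labelled the same. For tested values this meant the same direction and side of the threshold. For counts of calls it meant an equal or similar count, such as 5 in place of 4 from Amazo day -5 to day -4. Some counts stayed at 0 with no member tested. Leaving out the largest clonotype was chosen after seeing the data. With 3 pairs no exact test could pass 0.05, so those results say nothing of stability. Baseline depth limits any comparison with it, and the Nebula day -4 library, with 43.0% of its TRBV24-1 clonotypes at 1 count, limits its clones.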
